A study of Mus musculus with 2 samples.

Results

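Collagens, laminins and matrix glycoproteins were examined in Colon26 tumours, as the genes whose symbol marks them as a collagen or laminin chain, a nidogen, a fibrillin or fibulin, a lysyl oxidase, a thrombospondin, or a further matrix protein such as fibronectin, elastin, biglycan or perlecan. The rule found 60 genes with a value on both arrays, out of 13506 named genes measured on both. Colon26 is a mouse colon carcinoma line. The cells were grown in RPMI1640 medium with serum and injected under the lining of the rectum of Balb/c mice, and RNA was collected from primary tumours and from their liver metastases. On each of 2 two-colour arrays the primary tumour carried Cy5 and the liver metastasis Cy3. The tissues on array 2 came from other tumours than those on array 1, raised separately. Every sample descended from 1 cell line, and the labels do not say whether an RNA came from 1 animal or from several.

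Values are log ratios of both channels of an array, taken as log2. Which channel is the numerator is not given in the sources used here. Ratios are therefore given as a positive and a negative side, with neither assigned to the primary tumour or to the metastasis. No array had the dyes swapped, so a preference of a probe for 1 dye cannot be told apart from a difference between the tissues. The RNA came from whole tissue, and fewer cells of a type and less RNA per cell cannot be told apart either. A gene was called when its mean ratio differed from 0 at an adjusted p under 0.05 in limma's moderated test over all 13506 genes. Errors are the SD of the 2 arrays.

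The extracellular matrix has a fibrous and a sheet-like part. Fibrillar collagens, mainly types I, III and V, form the rope-like fibres of connective tissue, which lysyl oxidases cross-link. The basement membrane, a thin sheet under epithelia and around vessels, is built from type IV collagen and laminins, joined by nidogens and perlecan. Other collagens, elastic fibre proteins and matricellular proteins decorate, anchor or regulate these structures. In solid tumours fibroblasts make much of the matrix, and carcinoma and endothelial cells add basement membrane components.

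Of the 60 matrix genes 5 were called, against 2.9% of all genes. Col1a1, Col4a2, Col7a1 and Lama5 lay on the negative side, where 0.777% of all genes were called, and Col9a2 lay on the positive side, where 2.12% were called. A ratio of at least 1 log2 unit from 0 on each array was reached by 4 matrix genes (2.27% of all genes). Col1a1, Col4a2 and Col7a1 did so on the negative side (3 genes, against 0.578% of all genes) and Col9a2 on the positive side (1 gene, against 1.69%). Without a correction for multiple tests, 22 matrix genes had a limma p under 0.05 (27.5% of all genes), 15 on the negative side (12.5% of all genes) and 7 on the positive side (15.0% of all genes).

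**Figure D1:**
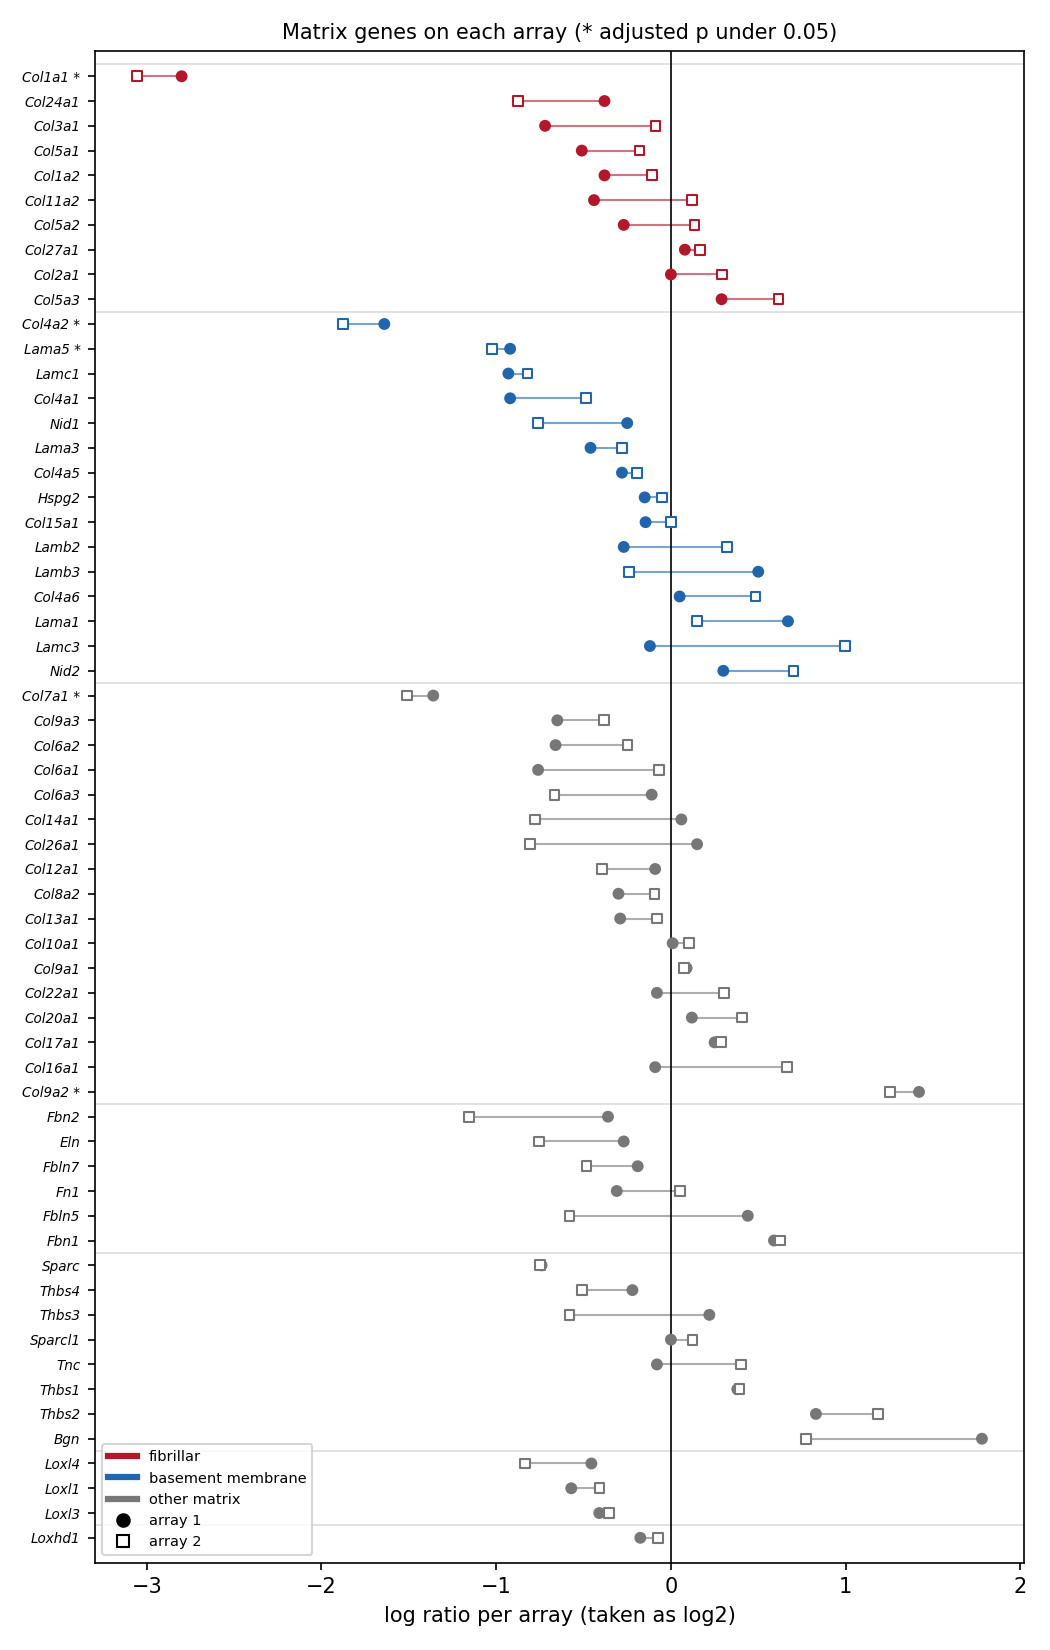
Log ratio (x axis, taken as log2) of each of the 60 matrix genes (rows, grouped by role) on array 1 (filled circles) and array 2 (open squares), with red for fibrillar collagens, blue for basement membrane and grey for other matrix. An asterisk marks the 5 called genes, from -2.80 and -3.05 for Col1a1 to 1.42 and 1.25 for Col9a2. The test favours genes whose values on the 2 arrays lie close together, so closeness among called genes follows partly from the call.

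The fibrillar collagens were dominated by a single gene. Col1a1, the main chain of type I collagen, had -2.80 on array 1 and -3.05 on array 2, a mean of -2.93 ± 0.18 (SD, n = 2) and a limma adjusted p of 0.0184. Taken as base 2 this is a 7.60-fold ratio, and Col1a1 was the matrix gene farthest from 0 on both arrays. Both values lay far outside those of the 9 other fibrillar chains, which ran from -0.72 to 0.29 on array 1 and from -0.88 to 0.62 on array 2.

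Col1a2, the partner that joins Col1a1 in the type I triple helix, had -0.38 and -0.11, a mean of -0.24 ± 0.19 with a 95% limma interval from -0.66 to 0.17. Its sign was that of Col1a1 on both arrays, but its size was not. Col3a1, the chain of type III collagen, which is laid down together with type I, had -0.72 and -0.09. Col24a1, a minor fibrillar chain, had -0.38 and -0.88. Both were negative on both arrays, and neither was called.

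Type V collagen, which starts the growth of type I fibrils, was divided among its chains. Col5a1 had -0.51 and -0.18, Col5a2 had -0.27 and 0.14, and Col5a3 had 0.29 and 0.62. The order of these chains was the same on both arrays, with Col5a3 highest and Col5a1 lowest. None of them was called (limma adjusted p of 0.246, 0.826 and 0.168 for Col5a1, Col5a2 and Col5a3), and the differences between them were not tested. The cartilage chain Col2a1 had 0.00 and 0.29, and the minor chain Col27a1 had 0.08 and 0.17. Col11a2, another cartilage chain, changed sign between the arrays (-0.44 and 0.12). Of the 10 fibrillar chains 5 had a negative value on both arrays (38.2% of all genes), 2 a positive value on both (33.9% of all genes) and 3 neither.

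Basement membrane genes, 15 in number, held 2 of the calls, against 2.9% of all genes. Col4a2, a chain of the common type IV collagen, had -1.64 and -1.87, a mean of -1.76 ± 0.17 (SD, n = 2) and a limma adjusted p of 0.0282, which is 3.38-fold at base 2. Its partner Col4a1, with which it assembles and with which it lies head to head in the genome, had -0.92 and -0.49, a mean of -0.70 ± 0.31, and was not called (limma adjusted p = 0.0988). Both chains were negative on both arrays, with Col4a2 the lower of the pair each time. The less common chains Col4a5 and Col4a6, another head-to-head pair, had -0.28 and -0.19 against 0.05 and 0.48, and neither was called.

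Lama5, the alpha chain of the laminins that are widespread in adult epithelial and vascular basement membranes, had -0.92 and -1.02, a mean of -0.97 ± 0.07 (SD, n = 2) with a limma adjusted p of 0.0488. That p lay close to the threshold, and the call was kept in 1 of 9 alternative settings. Lamc1, the gamma chain of most laminins, had -0.93 and -0.82, a mean of -0.88 ± 0.08, and missed the threshold at an adjusted p of 0.0565. The difference between this pair, -0.10 ± 0.15, was smaller than its spread, so a call of 1 and not of the other does not separate them. Lamb2, a beta chain that can join both, had -0.27 and 0.32, and Lamb1, the other common beta chain, was not analysed here.

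The remaining laminins lay on both sides. Lama3, the alpha chain of the anchoring laminin of the skin and gut epithelium, had -0.46 and -0.28, and its partner Lamb3 had 0.50 and -0.24. Lama1, typical of embryonic basement membranes, had 0.67 and 0.15, and Lamc3 had -0.12 and 1.00. Among the linkers, Nid1 was negative (-0.25 and -0.76) and Nid2 positive (0.30 and 0.70) on both arrays, and Hspg2, perlecan, lay near 0 at -0.15 and -0.05. Col15a1 averaged -0.07, but its 2 probes were opposed on both arrays, with 0.71 and 0.61 for 1 of them and, on array 2, -0.61 for the other. Of the 15 basement membrane genes 9, Col15a1 among them, had a negative value on both arrays (38.2% of all genes). A further 3 had a positive value on both (33.9% of all genes) and 3 mixed signs.

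**Figure D2:**
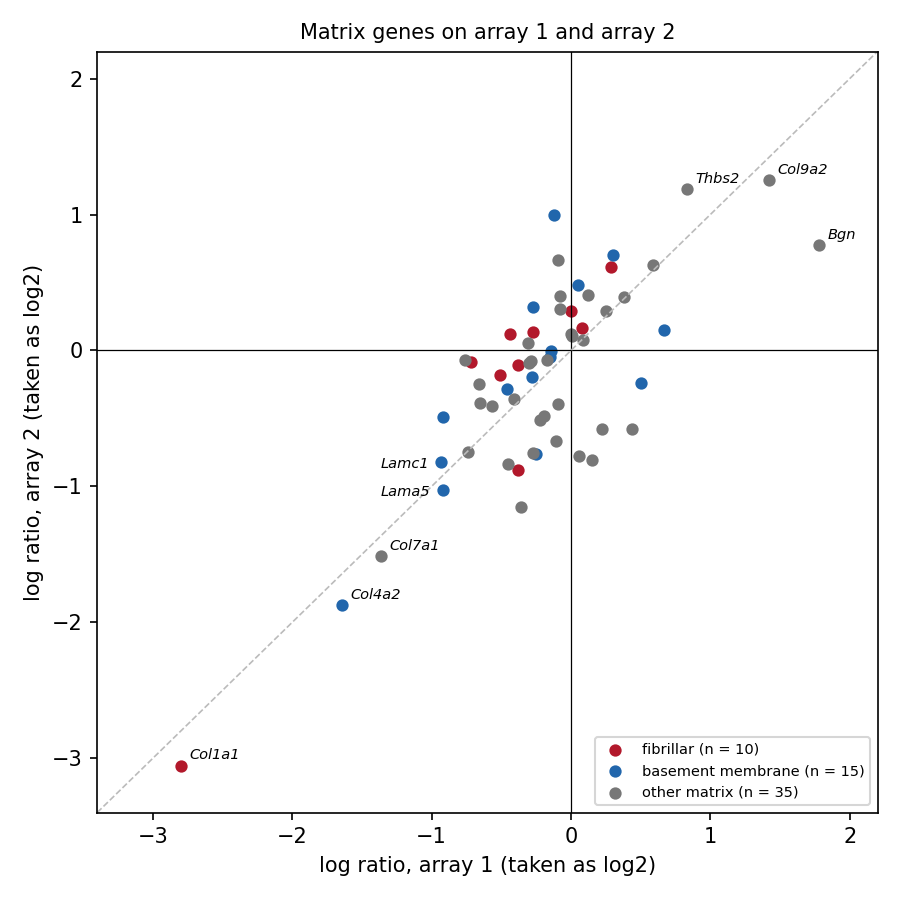
Log ratio of each matrix gene on array 1 (x axis) and array 2 (y axis), both taken as log2, coloured by class, with the line of equal values dashed. Col1a1, Col4a2 and Col7a1 lie near that line at the lower left and Col9a2 at the upper right, while Bgn had 1.78 on array 1 and 0.77 on array 2.

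Among the collagens of other types, Col7a1 and Col9a2 were called on opposite sides. Col7a1, the chain of the anchoring fibrils that fasten the basement membrane to the tissue below, had -1.36 and -1.51, a mean of -1.44 ± 0.11 (SD, n = 2) and a limma adjusted p of 0.0330. Col9a2, a chain of type IX collagen, which coats cartilage fibrils, had 1.42 and 1.25, a mean of 1.34 ± 0.12 and an adjusted p of 0.0349. At base 2 these ratios are 2.71-fold and 2.53-fold.

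The partners of Col9a2 did not share its ratio. Col9a1 had 0.09 and 0.07, and Col9a3 had -0.65 and -0.38, so that the chains of type IX spanned both sides on both arrays. The chains of type VI collagen, a microfibril around cells, were all negative on both arrays. Col6a1 had -0.76 and -0.07, Col6a2 -0.66 and -0.25, and Col6a3 -0.11 and -0.67. None was called, and the order of the chains changed between the arrays.

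The remaining 10 collagens of this group were not called, and their means ran from -0.36 for Col14a1 to 0.29 for Col16a1. Col17a1, the transmembrane collagen of hemidesmosomes, had 0.25 and 0.29, and Col12a1, which binds to the surface of type I fibrils, had -0.09 and -0.39. Col14a1, Col16a1, Col22a1 and Col26a1 changed sign between the arrays. In all, 8 of these 17 genes were negative on both arrays (38.2% of all genes) and 5 positive on both (33.9% of all genes).

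The 5' flanks of called chains on opposite sides are given here as the last 100 bases before the annotated start, for those with a RefSeq promoter entry (GRCm38.p6) that overlaps no other gene. Col1a2, the uncalled partner of the gene farthest from 0, is added. Capitals mark a GC box, GGGCGG on either strand. Col7a1 is at chr9:108953486-108953585, Col9a2 at chr4:121039466-121039565 and Col1a2 at chr6:4505518-4505617, all on the plus strand.
Col7a1: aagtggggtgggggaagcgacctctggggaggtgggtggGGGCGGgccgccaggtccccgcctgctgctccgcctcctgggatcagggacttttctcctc
Col9a2: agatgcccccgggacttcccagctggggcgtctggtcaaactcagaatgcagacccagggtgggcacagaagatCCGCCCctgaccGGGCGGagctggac
Col1a2: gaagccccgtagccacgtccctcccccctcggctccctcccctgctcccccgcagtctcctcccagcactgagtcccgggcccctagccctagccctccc
The Col7a1 stretch held 1 GC box, the Col9a2 stretch 2 and the Col1a2 stretch 0, and 24.7% of 32851 promoter windows of the same length held at least 1. A CCAAT box (CCAAT, either strand) was in 0 of the 3 stretches and in 18.9% of all windows. A TATA box (TATAAA, either strand) was in 0 of the 3 and in 5.56% of all windows. The GC box was thus present before 1 called gene of each side, Col7a1 and Col9a2, which is too few to compare the sides. The stretches were rich in G and C, with 71% for Col7a1, 66% for Col9a2 and 74% for Col1a2. The median over all windows was 55%.

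Elastic fibre genes and fibronectin held 0 calls among 6 (2.9% of all genes), with 3 at an unadjusted limma p under 0.05 (27.5% of all genes). Fbn1, the fibrillin of adult microfibrils, had 0.59 and 0.63, a mean of 0.61 ± 0.03 (SD, n = 2) and a limma adjusted p of 0.0941. Fbn2, its relative that is typical of developing tissue, had -0.36 and -1.15. The fibrillins thus lay on opposite sides on both arrays. Eln, elastin, had -0.27 and -0.76, Fbln7 had -0.19 and -0.48, and Fbln5, a fibulin needed for elastic fibres, had 0.44 and -0.58. Fn1, fibronectin, had -0.31 and 0.05, with opposite signs on the arrays.

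The matricellular and small leucine-rich proteins held the highest means on the positive side after Col9a2, and on array 1 Bgn lay above Col9a2. Bgn, biglycan, a small proteoglycan that binds collagen, had 1.78 and 0.77, and its mean of 1.28 ± 0.71 was not called (limma adjusted p = 0.0765). Thbs2, a thrombospondin that inhibits vessel growth, had 0.83 and 1.19, a mean of 1.01 ± 0.25 and an adjusted p of 0.0550. Thbs1, its close relative, had 0.38 and 0.39. Both thrombospondins were positive on both arrays, with Thbs2 the higher of the pair.

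Sparc, a collagen-binding glycoprotein, had -0.74 and -0.75, a mean of -0.74 ± 0.01 (SD, n = 2) and a limma adjusted p of 0.0699. Its values on the 2 arrays were nearly equal, and Sparcl1, its relative, had 0.00 and 0.12. Thbs4 had -0.22 and -0.51, Thbs3 0.22 and -0.58, and Tnc, tenascin C, -0.08 and 0.40. Of the 8 genes of this group 0 were called (2.9% of all genes), with 4 at an unadjusted limma p under 0.05 (27.5% of all genes).

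Of the lysyl oxidases, the enzymes that cross-link collagen and elastin, 3 were measured on both arrays and all were negative on both. Loxl4 had -0.46 and -0.83, Loxl1 had -0.57 and -0.41, and Loxl3 had -0.41 and -0.35. Limma called 0 of the 3 (2.9% of all genes), with 2 at an unadjusted p under 0.05 (27.5% of all genes). Loxhd1, which the letters of the rule also catch, is not a lysyl oxidase and had -0.17 and -0.07.

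The classes were compared by their median on each array. The fibrillar median was -0.38 on array 1 and 0.02 on array 2, the basement membrane median -0.25 and -0.19, and the median of the 35 other matrix genes -0.09 and -0.09. Over all genes the medians were -0.02 and -0.03. The fibrillar median minus that of the basement membrane was -0.13 on array 1 and 0.21 on array 2, a mean of 0.04 ± 0.24 (SD, n = 2), so the order of these classes changed between the arrays. Basement membrane minus other matrix was -0.16 and -0.10, a mean of -0.13 ± 0.04. The order depended on how the arrays were combined: the median of the gene means was -0.20 for fibrillar, -0.10 for basement membrane and -0.19 for other matrix genes. No test was run on these differences, since the smallest exact two-sided p that sign turning allows with 2 arrays is 0.5.

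In all, 31 of the 60 matrix genes had a negative value on both arrays (38.2% of all genes), 14 a positive value on both (33.9% of all genes) and 15 mixed signs or a value of 0 (27.8% of all genes). The median over the matrix genes was -0.18 on array 1 and -0.09 on array 2, against -0.02 and -0.03 over all genes. Across the 60 genes, which share the arrays and their labelling and are not independent, Pearson's r between the arrays was 0.77 and Spearman's rho 0.62. Over all genes they were 0.61 and 0.58. Without Col1a1 r was 0.69 and rho 0.60, and over the 55 uncalled matrix genes they were 0.52 and 0.51. Leaving out called genes tends to lower r, since the call favours values far from 0 and close together on both arrays. The values over all genes keep their called genes, so those of the uncalled matrix genes cannot be set against them.

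**Figure D3:**
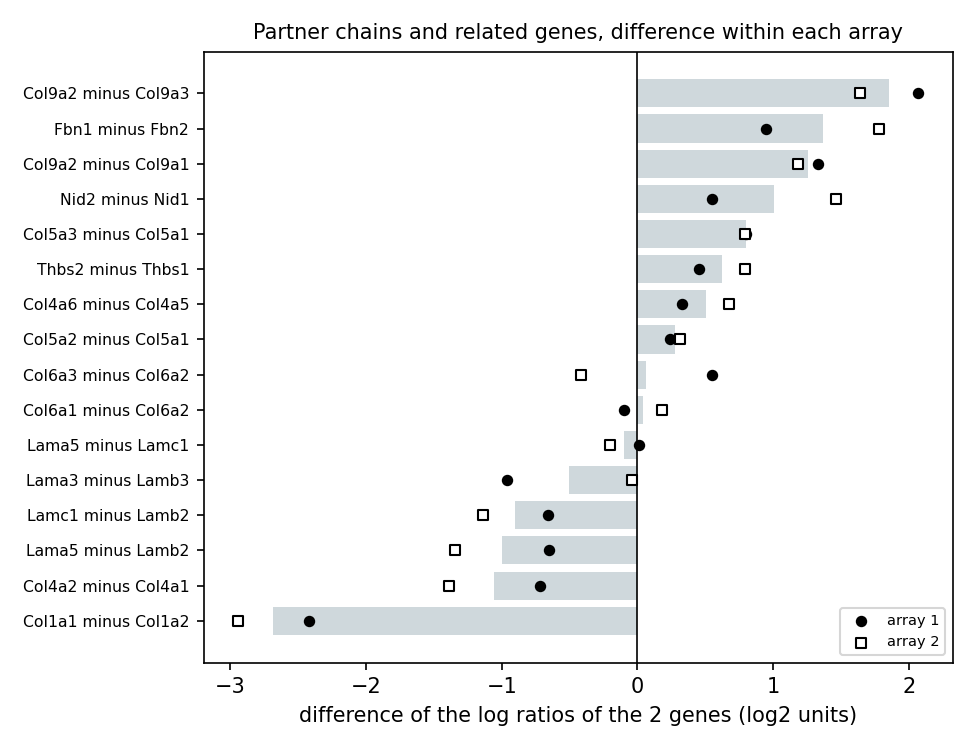
Difference between the log ratios of related genes (x axis, log2 units) for 16 pairs (rows), with the mean as a bar and array 1 and array 2 as filled circles and open squares. Col1a1 lay below Col1a2 and Col9a2 above both of its partners by more than 1 unit on each array, whereas Lama5 and Lamc1 differed by -0.10 on average.

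Some chains that are built into 1 molecule had unequal ratios. Within each array Col1a1 lay -2.42 and -2.94 from Col1a2, a mean difference of -2.68 ± 0.37 (SD, n = 2). Col9a2 lay 2.07 and 1.64 above Col9a3 and 1.33 and 1.18 above Col9a1. In these 3 of 16 pairs, each of which holds Col1a1 or Col9a2, the genes were at least 1 unit apart on both arrays. The sign of the difference was the same on both arrays in 13 pairs. The same shares over other gene pairs were not computed.

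Gaps under 1 unit on at least 1 array separated other related genes. Col4a2 minus Col4a1 was -0.72 and -1.39, and Lama5 minus Lamb2 was -0.65 and -1.34. Nid2 minus Nid1 was 0.55 and 1.46, and Fbn1 minus Fbn2 was 0.95 and 1.78. In the type VI pairs (Col6a1 and Col6a3, each against Col6a2) and in Lama5 against Lamc1 the sign changed between the arrays. Each gene of these pairs was read by a single probe, and the part of a faulty or dye-biased probe in such a gap was not tested.

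The members without a value on both arrays were counted apart. A further 12 genes had a value on 1 array only and 3 (Lox, Col23a1 and Col6a6) on neither, and 8 further symbols that match the rule were not analysed here. Of the 12, 11 were positive. On array 1 alone Loxl2 had 2.09, Fbln2 1.89, Lama4, an endothelial laminin chain, 1.82, Lum, lumican, 1.39, Col19a1 0.89, Fbln1 0.15 and Lama2 -0.46. On array 2 alone Col11a1 had 1.72, Col25a1 1.60, Col6a4 0.92, Dcn, decorin, 0.64 and Postn, periostin, 0.43.

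The same tilt was present in all genes with a value on 1 array only. Of 587 such genes on array 1, 90.1% were positive, with a median of 0.93, and of 906 on array 2, 81.7% were positive, with a median of 0.73. Among genes measured on both arrays 47.7% and 47.5% were positive. Genes missing from 1 array thus stood mostly on the positive side, and the negative lean of the 60 genes describes the genes with both values and not the whole family.

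Among genes that process collagen, none was called. Of 25 measured of 30 listed, 12 were negative on both arrays (38.2% of all genes) and 5 positive on both (33.9% of all genes). The median of the gene means was -0.20. In limma 0 of the 25 passed (2.9% of all genes did), with 10 at an unadjusted p under 0.05 (27.5% of all genes). P4hb, the shared subunit of collagen prolyl hydroxylase, had -0.67 ± 0.21 (SD, n = 2), Adamts3, a procollagen protease, -0.56 ± 0.07, and P3h1, a prolyl 3-hydroxylase, -0.55 ± 0.15. On the positive side Tll1, a tolloid protease, had 0.73 ± 0.34, P3h3 0.48 ± 0.25 and Mia3, which helps collagen leave the endoplasmic reticulum, 0.32 ± 0.12.

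Matrix receptors lay on both sides. Of 23 measured of 30 listed, 10 were negative (38.2% of all genes) and 7 positive (33.9% of all genes) on both arrays. Limma called 1 of the 23 (2.9% of all genes). Dag1, dystroglycan, a laminin receptor, was the 1 called gene, with -0.99 and -1.03, a mean of -1.01 ± 0.03 (SD, n = 2) and a limma adjusted p of 0.0475. Sdc4, a syndecan, had -0.81 ± 0.10 and Itga7, a laminin-binding integrin chain, -0.64 ± 0.07. Itgb4, the integrin chain of hemidesmosomes, had 1.73 ± 0.94, Itga10, a collagen receptor chain, 1.14 ± 0.53, and Itga1, another, 0.53 ± 0.03.

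Markers of cells that can make matrix lay on both sides. Of 14 fibroblast and pericyte markers listed, 11 were measured on both arrays, with a median of the gene means of -0.45. Among the 11, 8 were negative on both arrays (38.2% of all genes) and 0 positive on both (33.9% of all genes). Limma called 2 of the 11 (2.9% of all genes). These were Cspg4, a pericyte proteoglycan, at -1.24 ± 0.13 (SD, n = 2) and Vim, vimentin, at -1.02 ± 0.17. Their limma adjusted p was 0.0398 and 0.0488. Pdgfrb had -0.45 ± 0.29, Acta2 -0.33 ± 0.25, Fap -0.01 ± 0.12 and Pdgfra 0.19 ± 0.33. Of 13 endothelial markers listed, 9 were measured on both arrays, with a median of the gene means of 0.48. Among the 9, 7 were positive on both arrays (33.9% of all genes) and 0 negative on both (38.2% of all genes). Limma called 2 of the 9 (2.9% of all genes), Flt1 at 1.25 ± 0.36 and Robo4 at 1.04 ± 0.21. Their limma adjusted p was 0.0475 and 0.0492. Listed markers without a value on both arrays are left out of these counts. The other lists are given by their median on array 1 and array 2, with the median of the gene means in brackets. Hepatic stellate markers (4 measured) had 0.00 and 0.62 (gene means 0.43), and smooth muscle markers (8) had -0.09 and 0.47 (0.19). The smooth muscle marker Cnn1, at 1.15 ± 0.24, was called by limma with an adjusted p of 0.0472. Hepatocyte markers (12) had -0.02 and -0.04 (gene means 0.02), and colon epithelium markers (7) had -0.14 and -0.26 (-0.36). Limma called 0 of the stellate, hepatocyte and colon epithelium markers, and 2.9% of all genes. The part of any of these cells in the matrix ratios was not tested, and a ratio gives no level by which a marker could be called absent.

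**Figure D4:**
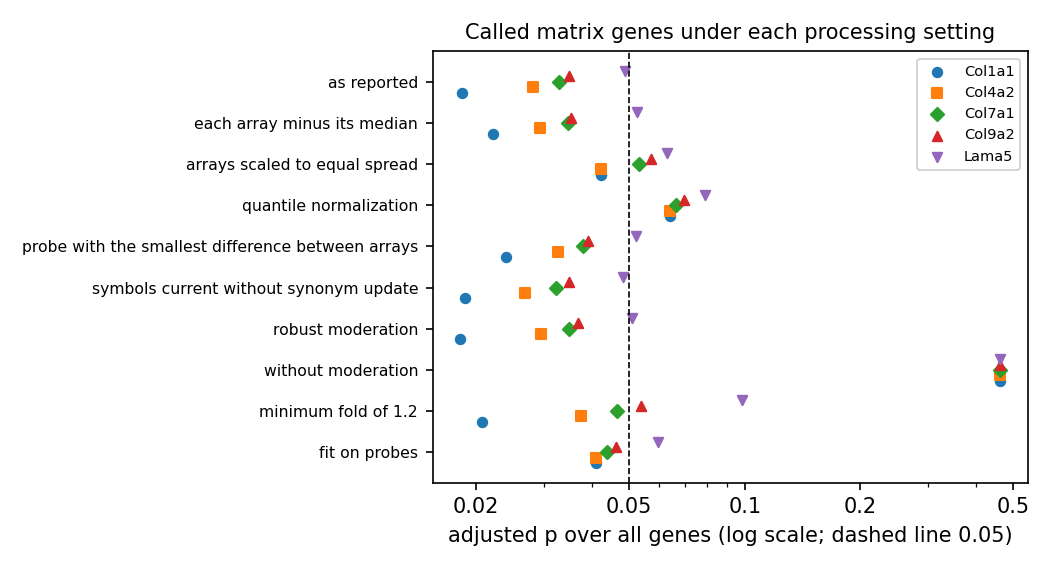
Adjusted p over all genes (x axis, log scale, dashed line at 0.05) of the 5 called matrix genes under each processing setting (rows). Col1a1 and Col4a2 stay left of the line in 7 of 9 alternatives, Col7a1 in 6, Col9a2 in 5 and Lama5 in 1.

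The calls differed in how far they depended on the processing. Col1a1 and Col4a2 remained called in 7 of 9 alternatives, Col7a1 in 6, Col9a2 in 5 and Lama5 in 1. After the arrays were scaled to equal spread, Col1a1 and Col4a2 were the 2 matrix genes called, and after quantile normalization 0 matrix genes and 4 of all 13506 genes were. The log ratios themselves moved little, with Col1a1 at -2.99 after quantile normalization.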

How the data were processed

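The deposited series table holds 1 log ratio per probe and array, made by the authors and taken here as log2. The base, numerator, background correction, spot filter and normalization are unstated in what was used here, and base 2 was assumed from the range. The median of all deposited values was 0 on array 1 and -5.53e-06 on array 2. The table holds no intensities. Precision is limited by the number of arrays. Both arrays held a value for 18837 of 23473 probes. A single symbol was annotated for 16631 probes, while 6842 had none and 0 had several. Of the 16631 probes, 12622 had a symbol that the RefSeq table of GRCm38.p6 lists as current. For 3947 probes the symbol was updated by a unique synonym, and for 62 it stayed as annotated. Probes were averaged per gene.

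Each gene's mean ratio was set against 0 by limma 3.58.1 under R 4.3.3 (intercept fit, eBayes, 1 residual and 4.06 prior degrees of freedom, Benjamini-Hochberg over 13506 genes). A run on simulated ratios checked the code only, and it does not show how reliable calls of the size reported here are. Because each array counts as 1 biological replicate per the labels, n is 2. Figures were drawn with matplotlib 3.10.9. Members and gene lists were chosen with earlier results of these data known. Named were called members, those past 1 log2 unit on both arrays, the up to 6 with the largest weaker value per group, and their partner chains. Other members, and the pairs that are no chains of 1 molecule, were added after their values were seen.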

Additional observations from a re-analysis of the deposited data

How the results depend on the processing

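The number of called matrix genes, 5 as reported, was 2 after scaling the arrays to equal spread, 0 after quantile normalization, 0 without moderation and 3 with a minimum fold of 1.2. All genes called fell to 51, 4, 0 and 108 in these settings, from 391. The other 5 alternatives gave 4 or 5. Without moderation the adjusted p of each called gene was 0.463, with 1 residual degree of freedom. Lama5 kept its call only where symbols were not updated by synonym (limma adjusted p = 0.0484), and the 8 other settings gave it an adjusted p between 0.0510 and 0.463. A ratio of 0.5 log2 unit or more on each array was met by 10 matrix genes (1677 or 12.4% of all genes), and of 1 unit by 7 and 5 on a single array (without replicate 1 and without replicate 2; 854 and 763 of all genes), against 4 on both (306 of all genes). The median of other matrix was -0.068 after centring and -0.14 with the probe of smallest difference per gene, against -0.09. Col5a3 minus Col5a1 was 0.81 after quantile normalization and 0.80 as reported, under a setting added after the data were seen. Col15a1 turned to 0.66 with its probe of smallest difference, and Lamb2 to -0.0014 after scaling. Leaving out 1 array gave class medians from -0.38 to 0.02 (fibrillar), -0.25 to -0.19 (basement membrane) and -0.0941 to -0.09 (other matrix). None of the uncalled matrix genes named by the rule was called in any alternative run. The fit to log ratios already compares both tissues within each array, so no further paired analysis was run, and there is 1 group.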
